A study of Saccharomyces cerevisiae with 12 samples.

Results

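Heat shock proteins and chaperones were followed as a group of 34 listed genes of Saccharomyces cerevisiae, chosen by symbol in the annotation of the array's probe sets. Of the 34, 32 had a probe set assigned to 1 gene, out of 5656 genes with such a probe set. SSB1 and SSB2, the ribosome-associated Hsp70 pair, share a single probe set and were not tested. All 32 passed the filter on low values, so none was lost there. The genes were split by what they are known for into 11 stress-induced members and 21 measured constitutive members (23 with SSB1 and SSB2).

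Chaperones bind unfolded or newly made proteins and help them reach or regain their folded state, mostly in cycles of ATP binding and hydrolysis that partner proteins start and stop. In yeast the heat shock factor Hsf1 drives a core of chaperone genes also in unstressed cells, while the general stress factors Msn2 and Msn4 act on genes such as HSP12, HSP26 and DDR2 when nutrients run short or protein kinase A activity is low. Constitutive members serve ongoing protein synthesis, import into mitochondria and secretion, whereas the stress-induced ones are known for low levels in fast growth on glucose.

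The samples were chemostat cultures of 2 haploid prototrophic MATa strains under 2 nutrient limitations, with 1 array per sample and 3 arrays per group. The leu3 delta strain, CEN.PK540-3A, has its LEU3 gene replaced by a loxP-Kan-loxP cassette, which remains in the genome, and CEN.PK113-7D carries LEU3 and is the reference strain. Leu3 is a transcription factor of branched-chain amino acid synthesis. The groups were leu3 delta N-lim, reference N-lim, leu3 delta C-lim and reference C-lim. In the nitrogen-limited cultures (N-lim) ammonium sulfate was fed at 1.0 g/l and glucose was in excess, with 53 g/l in the feed of leu3 delta and 59 g/l in that of the reference, for about 17 g/l left in the broth. In the carbon-limited cultures (C-lim) ethanol at 6.0 g/l was the carbon source and ammonium sulfate was fed at 5.0 g/l. Every group was kept at the same dilution rate (0.10 per h), temperature (30 °C) and pH (5.0), so growth rate was held equal while nutrient limitation and carbon source changed together. The labels number the samples of a group but do not say that each came from its own culture, so p-values measure the spread between these samples, which may be technical.

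LEU3 signal was at most 0.6 on the leu3 delta arrays and between 59.9 and 110.4 on the reference arrays. Array quality was uneven: the actin 3′/5′ ratio, the signal of a 3′ probe set over that of a 5′ one and higher where labelled RNA is shorter, was 1.54 to 1.903 in leu3 delta N-lim against 2.45 to 3.29 in reference N-lim, and 1.71 to 1.91 in leu3 delta C-lim against 3.31, 9.27 and 13.98 in reference C-lim. Reference N-lim arrays 2 and 3 also carried signal of a bacterial control transcript (3095 and 2748, at most 1.6 on the other 10 arrays). Both strains are labelled MATa, and the a-cell genes STE2, BAR1 and STE6 had signal in every group. The alpha-factor gene MF(ALPHA)1 nevertheless read 28.8 to 47.4 in leu3 delta N-lim, against 270.0 to 356.6 in reference N-lim (17.9 to 34.9 under C-lim), and its part in the strain differences was not tested. STE3, the alpha-cell receptor gene, was at most 36.4 on all 12 arrays. The median SD of log2 values over the members was 0.13 in leu3 delta N-lim, 0.17 in reference N-lim, 0.11 in leu3 delta C-lim and 0.27 in reference C-lim. Calls that ended without reference C-lim arrays 2 and 3 or without reference N-lim arrays 2 and 3 are therefore named with their values.

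Over the 4 groups the class median of the stress-induced members varied more than that of the constitutive ones. Each gene's log2 intensity was set against its own mean over the 12 arrays, and the median over the class was taken on each array. For the 11 stress-induced members this median was -0.79, -0.64 and -0.77 on the leu3 delta N-lim arrays against -0.01, -0.44 and -0.20 on the reference N-lim arrays. It was 0.36, 0.34 and 0.63 on the leu3 delta C-lim arrays against 0.29, 0.65 and 0.82 on the reference C-lim arrays. The leu3 delta N-lim arrays were thus the lowest of all 12, and every carbon-limited array lay above every nitrogen-limited one. For the 21 constitutive members the median stayed between -0.19 and 0.17 on all 12 arrays. These medians describe the arrays and were given no test, since genes of a class are not replicates. A median also hides sets of members and single members that departed from their class. In the reference, the 9 constitutive members known to be raised by heat changed by a median of -0.65 log2 from C-lim to N-lim. The other 12 constitutive members had a median of 0.12 there. In leu3 delta these medians were -0.19 and 0.04. Constitutive SSA1 ran from -0.74 to 1.17 and YDJ1 from -1.15 to 0.45, and stress-induced HSP78 from -0.54 to 0.47.

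**Figure D1:**
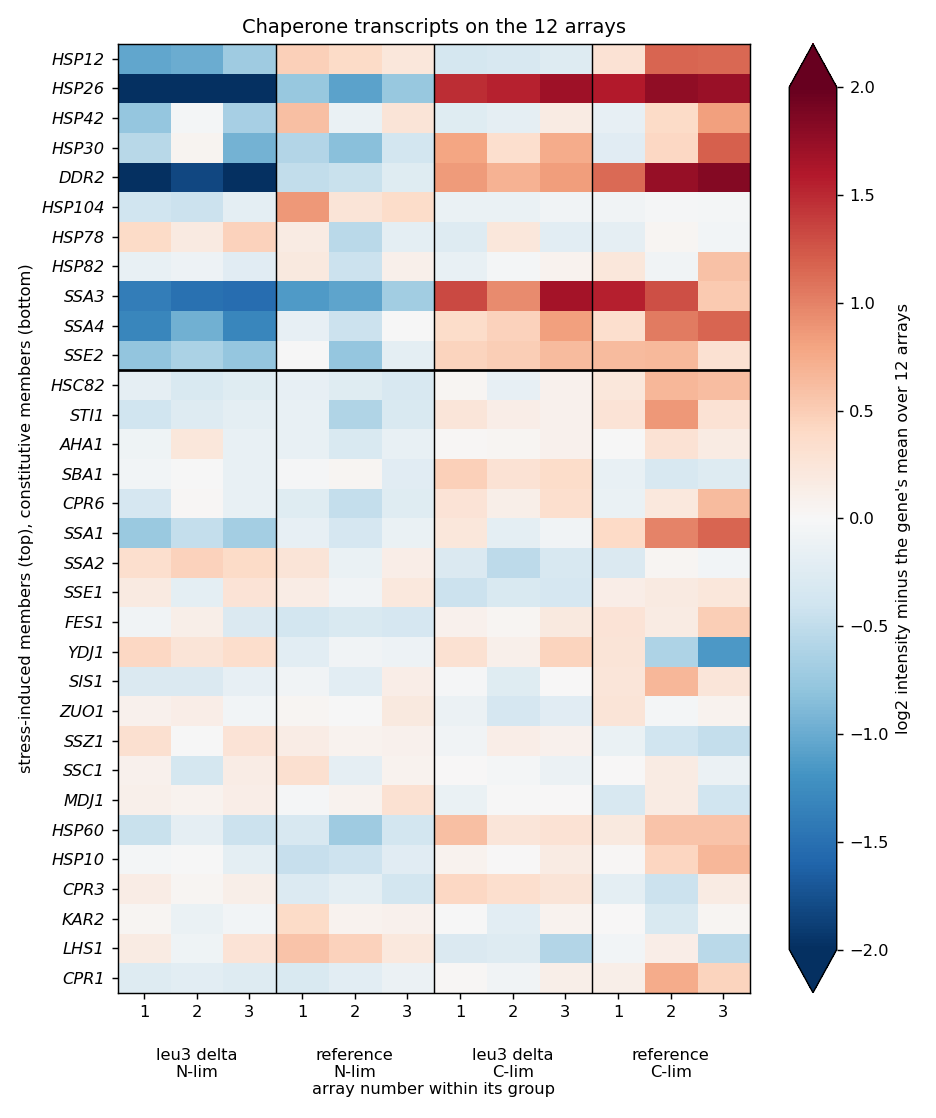
Log2 intensity of each of the 32 measured members minus its mean over the 12 arrays, with 1 column per array and groups separated by vertical lines. Colours end at -2 and 2. The rows of HSP26, DDR2, SSA3 and SSA4 are lowest in leu3 delta N-lim, and most rows below the horizontal line, the constitutive members, are pale.

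Under nitrogen limitation, leu3 delta was set against the reference strain to see which chaperone genes differ between the strains there. In all, 5 stress-induced members fell in leu3 delta, namely DDR2, HSP26, HSP12, SSA4 and HSP104, between 1.78-fold and 3.0-fold. Only HSP78 rose among the 11, by 0.54 on the log2 scale, and the other 5 did not pass. None of the 21 constitutive members passed in either direction in limma. In some alternatives of the fit SSA1 passed lower, and CPR3, YDJ1 and HSP10 passed higher. Their outcome stayed the same in 14 (SSA1), 14 (CPR3), 15 (YDJ1) and 16 (HSP10) of 17 alternatives. The test was a limma model over all 5321 tested genes, passed at a Benjamini-Hochberg adjusted p under 0.05. In it 22.2% of all genes passed, 6.05% higher and 16.1% lower, beside 6 of 32 members (18.8%), 1 higher and 5 lower. Among stress-induced members 45.5% were lower. The arrays of the strains did not overlap for 7 members higher and 8 lower, beside 13.9% and 29.8% of all genes.

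HSP12 encodes a small protein that associates with and stabilises membranes under stress. Its intensity was 856, 890.4 and 1073 in leu3 delta N-lim, against 2456, 2303 and 2071 in reference N-lim. The lowest reference array stood well above the highest leu3 delta array, and the change was -1.28 ± 0.20 log2 (SE, limma adjusted p = 0.00036, with 3 arrays a strain). HSP26 encodes a small heat shock protein that holds unfolding proteins in a refoldable state. It read 81.1, 80.0 and 67.8 in leu3 delta N-lim, against 238, 191 and 239 in reference N-lim. The groups were again apart, with a change of -1.54 ± 0.14 (adjusted p = 3.12e-06).

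DDR2, a gene induced by many stresses whose protein has no well-defined activity, read 409, 476 and 402 in leu3 delta N-lim, against 1197, 1238 and 1430 in reference N-lim. All leu3 delta arrays lay far below the reference arrays (-1.59 ± 0.17, adjusted p = 1.42e-05). HSP42, the other small heat shock protein gene of the cytosol, read 168, 278 and 180 in leu3 delta N-lim, against 432, 260 and 341 in reference N-lim. Leu3 delta array 2 lay inside the reference range, and the change of -0.73 ± 0.26 did not pass (adjusted p = 0.052). HSP30, a plasma membrane protein gene that acts on the proton pump, stood at 0.11 ± 0.30 with overlapping arrays (adjusted p = 0.833).

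The 2 disaggregases, which pull proteins out of aggregates, went opposite ways. HSP104, the cytosolic one, read 364, 357 and 418 in leu3 delta N-lim, against 876, 572 and 616 in reference N-lim. Reference array 1 was the highest by a wide margin, yet all 3 reference arrays exceeded all leu3 delta arrays (-0.83 ± 0.16, adjusted p = 0.00159). HSP78, its mitochondrial counterpart, read 381, 330 and 404 in leu3 delta N-lim, against 326, 201 and 254 in reference N-lim. Here the leu3 delta arrays were the higher ones by a small gap (0.54 ± 0.18, adjusted p = 0.0479). That call ended in 10 of its 17 alternatives, among them the removal of reference N-lim arrays 2 and 3, where it stood at 0.18. It also ended without leu3 delta N-lim array 1 (0.52), 2 (0.62) or 3 (0.48) and without reference N-lim array 2 (0.36) or 3 (0.53).

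In the cytosolic Hsp70 system, SSA4 was the only gene of 9 to pass. SSA4 encodes an Hsp70 that is made mainly under stress, and it read 52.5, 66.4 and 52.5 in leu3 delta N-lim, against 116, 95.6 and 129 in reference N-lim (-0.99 ± 0.21, adjusted p = 0.00359). Its relative SSA3, low on all 6 of these arrays, read 35.4, 32.7 and 32.0 in leu3 delta N-lim, against 41.7, 44.3 and 56.9 in reference N-lim. The arrays of SSA3 did not overlap, but the change of -0.50 ± 0.24 did not pass (adjusted p = 0.147). SSE2, the stress-induced Hsp110 exchange factor, stood at -0.41 ± 0.18 (adjusted p = 0.12), and SSA1, an Hsp70 gene active in all conditions and raised by heat, at -0.42 ± 0.19 (adjusted p = 0.123). SSA2 (0.31), SSE1 (-0.01), the exchange factor gene FES1 (0.26) and the J protein genes YDJ1 (0.47) and SIS1 (-0.19) did not pass either.

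No member of the remaining roles passed under nitrogen limitation. HSP82, the heat-raised Hsp90 gene, stood at -0.11 ± 0.19 and HSC82, its constitutive twin, at 0.00 ± 0.15. HSC82 read 1573, 1438 and 1497 in leu3 delta N-lim, against 1593, 1497 and 1421 in reference N-lim, so the groups covered the same range. The Hsp90 partner genes STI1, which links Hsp70 to Hsp90 (0.06), AHA1, which speeds its ATP hydrolysis (0.20), CPR6, a prolyl isomerase (0.17), and SBA1 (0.00) did not pass. ZUO1 and SSZ1, which form the ribosome-associated complex that guides nascent chains, stood at -0.02 and 0.10. In mitochondria the import motor Hsp70 gene SSC1 (-0.11), its J protein gene MDJ1 (-0.01), the chaperonin genes HSP60 (0.12) and HSP10 (0.28) and the prolyl isomerase gene CPR3 (0.38) did not pass, nor did the endoplasmic reticulum genes KAR2 (-0.23) and LHS1 (-0.30) or the cytosolic cyclophilin gene CPR1 (-0.03). The 21 constitutive changes ran between -0.42 and 0.47 with a median of 0.00, against a median of -0.73 for the 11 stress-induced members and -0.11 for all genes tested. The difference of -0.73 between the class medians became -0.14 when the 9 constitutive members known to be raised by heat were counted as stress-induced. Centring the arrays on their median moved the median of all genes to 0.04 and that of the constitutive members to 0.14, with 2 members higher and 5 lower.

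**Figure D2:**
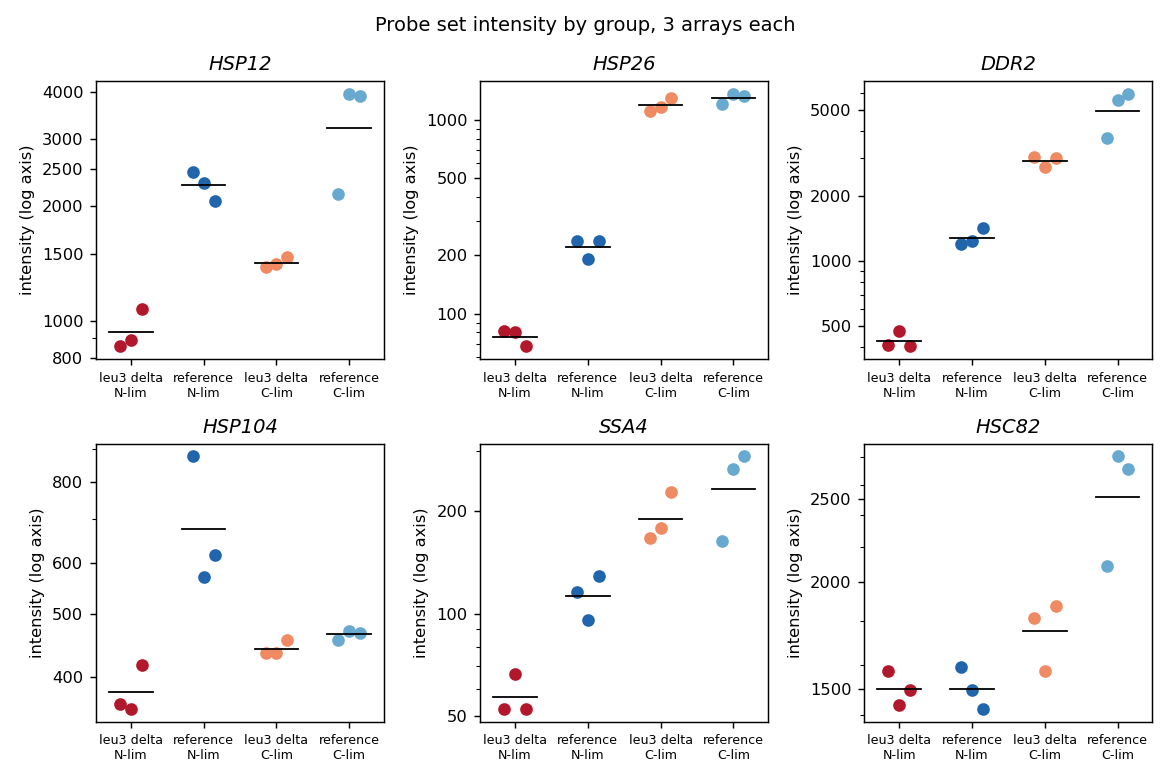
Intensity of 5 stress-induced members and of the constitutive HSC82 on a log axis, with 1 point per array and a bar at the geometric mean of the 3 arrays of a group. HSP12, HSP26, DDR2, HSP104 and SSA4 are lower in leu3 delta than in the reference under N-lim without overlap, while HSC82 overlaps there.

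The 5 decreases under nitrogen limitation passed in all 17 alternatives run for that comparison, single arrays left out included. Some alternatives, such as the higher floor, the absent filter and the mean of probe sets, could not change the size of these decreases. Without reference N-lim arrays 2 and 3, which leaves 1 reference array that is assumed to vary like those of the other groups, they stood at -1.39 (HSP12), -1.65 (HSP26), -1.48 (DDR2), -1.21 (HSP104) and -1.03 (SSA4). With the actin ratio as a term they stood at -1.02 (HSP12), -1.50 (HSP26), -1.38 (DDR2), -0.83 (HSP104) and -0.75 (SSA4). That term is a single slope shared by all groups, and the ratio spread most within reference C-lim (3.31, 9.27 and 13.98). Whether this slope holds for the N-lim arrays was not tested. The actin ratio was higher on each reference N-lim array than on each leu3 delta N-lim array. The 3′/5′ ratio of another control gene, SPT15, overlapped there. It was 3.582, 3.31 and 4.089 in leu3 delta N-lim against 3.423, 3.625 and 3.683 in reference N-lim. Between the C-lim groups the SPT15 ratio did not overlap, at 2.931, 2.905 and 2.559 in leu3 delta against 3.64, 8.077 and 10.05 in the reference.

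With ethanol as the limiting nutrient, the same pair of strains was compared. HSP12 and DDR2 again fell in leu3 delta, by 1.18 ± 0.20 and 0.77 ± 0.17 log2 (SE, limma adjusted p = 0.000941 and 0.00485). The other 9 stress-induced members did not pass, HSP26 among them at -0.13 ± 0.14 and HSP104 at -0.07 ± 0.16. Of the 21 constitutive members 4 fell (SSA1, SSE1, HSC82 and SIS1) and 3 rose (YDJ1, SBA1 and CPR3). In this comparison 28.1% of all genes passed, 17.4% higher and 10.7% lower, beside 9 of 32 members (also 28.1%), 3 higher and 6 lower. The arrays of the strains did not overlap for 3 members higher and 10 lower, beside 23.5% and 16.2% of all genes. These 9 calls ended without reference C-lim arrays 2 and 3, the arrays with the 2 highest actin ratios. That removal leaves a single reference C-lim array, which is assumed to vary like those of the other groups. The changes of SSE1, SBA1 and CPR3 stayed near their first size there, and the others shrank. None of the 9 calls remained with the actin ratio as a term either, which bears largely on the same 2 arrays and is not an independent check. With that term the changes of HSP12 (-0.36), DDR2 (-0.11), HSC82 (-0.16) and SSA1 (-0.16) were much smaller than in the first fit, while SSE1 (-0.36), SIS1 (-0.30), SBA1 (0.45) and CPR3 (0.70) kept their direction at a size nearer to it.

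HSP12 read 1381, 1412 and 1468 in leu3 delta C-lim, against 2152, 3958 and 3911 in reference C-lim. Every reference array was higher, and arrays 2 and 3 stood far above array 1. DDR2 read 3031, 2727 and 3015 in leu3 delta C-lim, against 3708, 5607 and 5981 in reference C-lim, with the same split inside the reference group. Without reference arrays 2 and 3, HSP12 stood at -0.60 and DDR2 at -0.34.

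Among the constitutive genes SSA1 had the largest decrease, 6485, 4853 and 5268 in leu3 delta C-lim against 7324, 10973 and 12467 in reference C-lim (-0.87 ± 0.19, adjusted p = 0.004). Quantile normalization, which gives all arrays the same distribution of values, left it at -0.06, where it did not pass. HSC82 read 1817, 1576 and 1877 in leu3 delta C-lim, against 2087, 2808 and 2714 in reference C-lim (-0.52 ± 0.15, adjusted p = 0.0162). SSE1, the main Hsp110 exchange factor, was 461, 503 and 492 in leu3 delta C-lim, against 682, 708 and 729 in reference C-lim, a tight and separate pair of groups (-0.54 ± 0.15, adjusted p = 0.0144). SIS1, an essential J protein gene, fell by 0.47 ± 0.15 (adjusted p = 0.0332). Without reference C-lim arrays 2 and 3 these 4 stood at -0.41 (SSA1), -0.25 (HSC82), -0.49 (SSE1) and -0.33 (SIS1).

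The 3 increases were of different make. SBA1, the p23 partner of Hsp90, read 1376, 1210 and 1275 in leu3 delta C-lim, against 884, 790.4 and 822 in reference C-lim, with all reference arrays close together (0.63 ± 0.13, adjusted p = 0.00342). CPR3 was higher at 0.49 ± 0.15 (adjusted p = 0.027), also without overlap. YDJ1, the main J protein of cytosolic Hsp70, read 1444, 1254 and 1594 in leu3 delta C-lim, against 1395, 757 and 527 in reference C-lim, so that reference array 1 lay inside the leu3 delta range (0.79 ± 0.25, adjusted p = 0.0277). Without reference arrays 2 and 3 YDJ1 stood at 0.03, whereas SBA1 and CPR3 stood at 0.54 and 0.53 and did not pass. YDJ1 was -0.45 with the actin ratio as a term. With 1 array left out, calls ended for YDJ1 (leu3 delta array 1 or 3, reference array 2 or 3, 0.47 to 0.78), CPR3 (any leu3 delta array or reference array 2, 0.35 to 0.53), SIS1 (any leu3 delta array or reference array 2, -0.52 to -0.33), HSC82 (leu3 delta array 2 or reference array 2, -0.45 and -0.44) and SSE1 (leu3 delta array 1, -0.51).

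**Figure D3:**
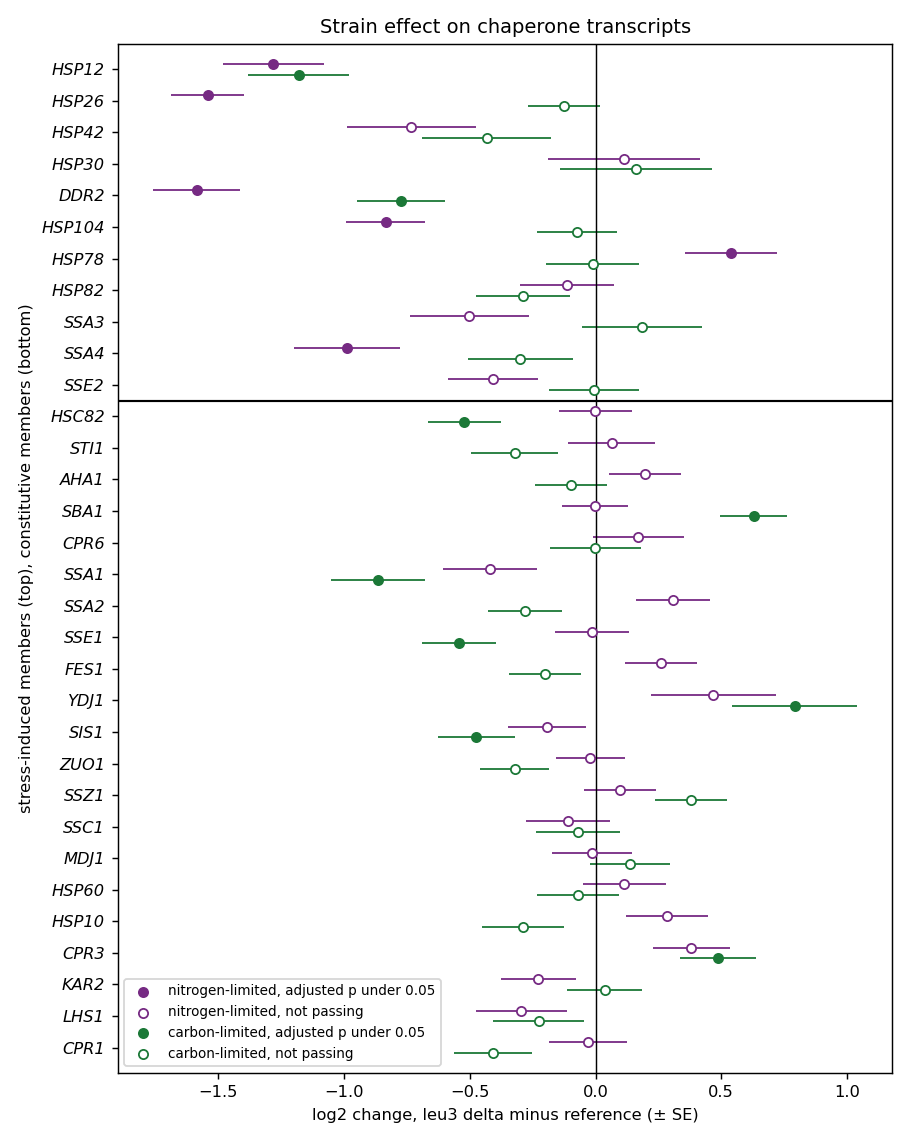
Log2 change between leu3 delta and the reference for each member, with SE from the limma model. Filled points passed at an adjusted p under 0.05. Under nitrogen limitation all 6 filled points are stress-induced members, and under carbon limitation 7 of the 9 are constitutive members.

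The other 14 constitutive members did not pass under carbon limitation. STI1 (-0.32), AHA1 (-0.10), CPR6 (0.00), SSA2 (-0.28) and FES1 (-0.20) of the cytosol lay at or below 0, and SSZ1 (0.38) and ZUO1 (-0.32) of the ribosome lay on either side of it. HSP60 (-0.07), HSP10 (-0.29), SSC1 (-0.07), MDJ1 (0.14), KAR2 (0.04), LHS1 (-0.23) and CPR1 (-0.41) completed them. The class medians were close to each other, at -0.13 for stress-induced and -0.20 for constitutive members, against 0.05 for all genes. With centred arrays the median of all genes was -0.12 and the members split into 1 higher and 9 lower. After quantile normalization 3 were higher and 2 lower.

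The difference between the strain effects, nitrogen minus carbon limitation, was itself tested as the interaction. HSP26, DDR2, HSP104 and SBA1 passed, all with a lower strain effect under nitrogen limitation, beside 13.1% of all genes in that direction and 5.24% in the other (18.3% in all). SBA1 was not reduced under nitrogen limitation, its strain effects being -0.001 there and 0.63 under carbon limitation. For HSP26 the difference was -1.42 ± 0.20 (SE, adjusted p = 0.000443) and it passed in all 22 alternatives. DDR2 (-0.81 ± 0.25, adjusted p = 0.032), HSP104 (-0.76 ± 0.22, adjusted p = 0.0284) and SBA1 (-0.63 ± 0.19, adjusted p = 0.0301) passed here, and these 3 calls ended in 8, 9 and 11 of the alternatives. HSP12 did not pass, at -0.10 ± 0.28 (adjusted p = 0.835), its strain effects being -1.28 under nitrogen and -1.18 under carbon limitation. Without reference C-lim arrays 2 and 3 its difference was -0.68 (adjusted p = 0.0632), so these data do not show its strain effects to be alike. Centring the arrays moved the median of all genes in the interaction to 0.11, against -0.20, and with it 7 members were higher and 1 lower, HSP26 being the 1 lower.

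The limitation effect compares nitrogen-limited glucose cultures with carbon-limited ethanol cultures of the same strain. In leu3 delta the stress-induced HSP26, SSA3, DDR2, SSA4, SSE2, HSP30 and HSP12 fell, between 1.52-fold and 15.7-fold, and none of the 11 rose. HSP26 had the largest change, -3.97 ± 0.14 log2 (SE, n = 3 per group, limma adjusted p = 4.34e-12), at 81.1, 80.0 and 67.8 under N-lim against 1121, 1167 and 1307 under C-lim. SSA3 fell by 2.77 ± 0.24 (adjusted p = 1.99e-07), at 35.4, 32.7 and 32.0 under N-lim against 229, 176 and 291 under C-lim. No array of either gene came near the other group's range.

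DDR2 fell in leu3 delta by 2.77 ± 0.17 (adjusted p = 4.15e-09), SSA4 by 1.73 ± 0.21 (9.86e-06) and SSE2 by 1.26 ± 0.18 (5.17e-05). HSP30 fell by 1.10 ± 0.30 (0.00989) and HSP12 by 0.60 ± 0.20 (0.0289). HSP42 (-0.40), HSP104 (-0.22), HSP78 (0.42) and HSP82 (-0.12) did not pass. Among the 21 constitutive members SSA2 (0.78 ± 0.15), LHS1 (0.50 ± 0.18) and SSE1 (0.44 ± 0.15) rose, and HSP60 (-0.73 ± 0.16), SSA1 (-0.62 ± 0.19) and SBA1 (-0.45 ± 0.13) fell, with adjusted p between 0.000747 and 0.0421. With 1 array left out some of these calls ended: HSP30 without N-lim array 3 (-0.88), SBA1 without N-lim array 3 or C-lim array 1 (-0.41 and -0.40), SSA1 without N-lim array 1 or 3 or C-lim array 1 (-0.56, -0.59 and -0.50). HSP12 ended without N-lim array 1 or 2 or any C-lim array (-0.62 to -0.54), and LHS1 (0.40 to 0.56) and SSE1 (0.35 to 0.47) without N-lim array 1 or 3 or any C-lim array. The LHS1 call also ended without reference N-lim arrays 2 and 3, at an unchanged size of 0.50. Of all genes 35.8% passed, 18.1% higher and 17.8% lower, beside 13 of 32 members (40.6%), 3 higher and 10 lower. The arrays of the limitations did not overlap for 5 members higher and 17 lower, beside 27.8% and 26.2% of all genes. The medians were -1.10 for stress-induced members, -0.16 for constitutive ones and 0.02 for all genes.

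SSA2 and SSA1 therefore moved in opposite directions in leu3 delta. SSA2, a constitutive cytosolic Hsp70 gene nearly identical to SSA1, read 2625, 2860 and 2710 under N-lim against 1696, 1443 and 1657 under C-lim. SSA1 read 3320, 3998 and 3453 under N-lim against 6485, 4853 and 5268 under C-lim. HSP60 and HSP10 form 1 folding chamber of the mitochondrial matrix, yet HSP60 passed (1229, 1480 and 1253 under N-lim against 2541, 1995 and 2058 under C-lim) and HSP10 stood at -0.16 ± 0.16 (adjusted p = 0.46).

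In the reference strain 15 members fell and 3 rose, beside 14.9% lower and 32.6% higher among all genes (47.6% in all). The arrays of the limitations did not overlap for 4 members higher and 16 lower, beside 34.0% and 16.4% of all genes. The stress-induced HSP26, SSA3, DDR2, HSP30, SSA4 and SSE2 fell, between 1.81-fold and 5.89-fold. HSP104 rose by 0.54 ± 0.16 (adjusted p = 0.0113), at 876, 572 and 616 under N-lim against 456, 472 and 468 under C-lim. HSP26 again changed most, by -2.56 ± 0.14 (adjusted p = 1.05e-09), at 238, 191 and 239 under N-lim against 1211, 1372 and 1339 under C-lim. SSA3 fell by 2.08 ± 0.24 (4.7e-06) and DDR2 by 1.96 ± 0.17 (2.79e-07). These 3 passed in all 17 alternatives.

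Of the 21 constitutive members 9 fell in the reference strain under nitrogen limitation. They were SSA1 (-1.06 ± 0.19), HSP60 (-0.92 ± 0.16), STI1 (-0.83 ± 0.17), HSC82 (-0.74 ± 0.15), HSP10 (-0.74 ± 0.16), FES1 (-0.65 ± 0.14), CPR1 (-0.64 ± 0.16), CPR6 (-0.56 ± 0.18) and SIS1 (-0.44 ± 0.15), with adjusted p between 0.000305 and 0.0283. Of the 9 genes marked as basal but raised by heat 7 were among them, with AHA1 (-0.35) and MDJ1 (0.30) not passing. SSZ1 (0.43 ± 0.14) and LHS1 (0.57 ± 0.18) rose. Of the CPR1 probe sets not used, 1 overlapped in the reference strain, at 2506, 2595 and 2494 under N-lim against 2613, 4242 and 2591 under C-lim. The other was lower under N-lim without overlap, at 1516, 1487 and 1520 against 1992, 2877 and 2089. After quantile normalization SSA1 (-0.03), CPR1 (-0.12), SIS1 (-0.20), SSZ1 (0.32) and LHS1 (0.35) did not pass.

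Part of these reference values moved with 2 arrays. Without reference C-lim arrays 2 and 3 the count was 8, all lower, and HSP30 stood at -0.36, SSA4 at -0.54, HSC82 at -0.47, HSP10 at -0.38, CPR6 at -0.19, CPR1 at -0.32, SIS1 at -0.30, HSP104 at 0.57, SSZ1 at 0.23 and LHS1 at 0.47, none of them passing. The lists of calls were shorter still with the actin ratio as a term, where HSP26, SSA3, DDR2 and SSE2 passed, all lower. Of the calls that ended there, HSP104 (0.54), FES1 (-0.59), STI1 (-0.70), SIS1 (-0.32) and HSP60 (-0.65) kept the most of their change. HSC82 (-0.49), LHS1 (0.35), CPR1 (-0.35), SSZ1 (0.23), SSA1 (-0.56) and SSA4 (-0.51) kept less, and HSP10 (-0.31), HSP30 (-0.24) and CPR6 (-0.11) the least. Without reference N-lim arrays 2 and 3 there were 1 higher and 10 lower, and SSE2 stood at -0.55, HSP30 at -1.05, STI1 at -0.62, CPR6 at -0.48, SIS1 at -0.46, SSZ1 at 0.48 and LHS1 at 0.73, none of them passing. With 1 array left out, HSP104 ended without reference N-lim array 1 (0.35), CPR6 without N-lim array 2 or C-lim array 3 (-0.48 and -0.36), SIS1 without N-lim array 1 or 2 or C-lim array 2 (-0.43, -0.36 and -0.30), SSZ1 without N-lim array 1 or C-lim array 2 or 3 (0.41, 0.40 and 0.36) and LHS1 without N-lim array 1 or C-lim array 3 (0.49 and 0.38). Centring moved the median of all genes to -0.07, against 0.19, and gave 18 lower and 0 higher members, with HSP104 at 0.27, SSZ1 at 0.17 and LHS1 at 0.30 not passing.

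**Figure D4:**
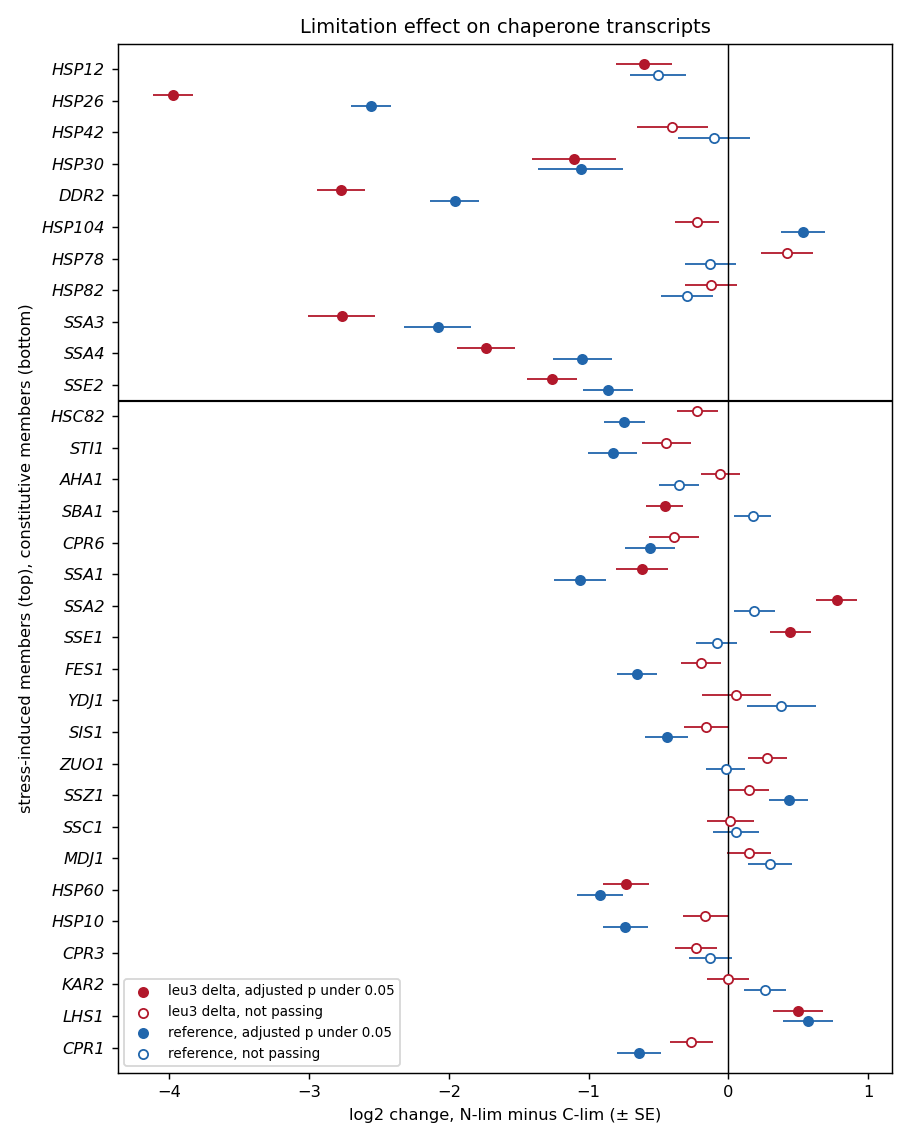
Log2 change between nitrogen-limited and carbon-limited cultures for each member in each strain, with SE from the limma model. HSP26, DDR2, SSA3, SSA4, SSE2 and HSP30 have filled points left of 0 in both strains, and HSP104 has a filled point right of 0 in the reference strain.

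The strain and limitation comparisons share arrays, so each gene's values were set side by side over the 4 groups. HSP26 averaged 76.3 ± 7.38 (SD, n = 3) in leu3 delta N-lim and 223 ± 27.3 in reference N-lim, and 1198 ± 96.7 in leu3 delta C-lim and 1307 ± 84.7 in reference C-lim. The 2 carbon-limited groups of HSP26 overlapped, and the nitrogen-limited ones lay below them and apart from each other. HSP104 averaged 380 ± 33.4 in leu3 delta N-lim and 688 ± 164 in reference N-lim, and 442 ± 11.9 in leu3 delta C-lim and 465.5 ± 8.17 in reference C-lim. Its high group was reference N-lim alone. HSP12 averaged 940 ± 116 in leu3 delta N-lim and 2277 ± 194 in reference N-lim, and 1420 ± 44.3 in leu3 delta C-lim and 3340 ± 1029 in reference C-lim, with the leu3 delta mean the lower one under both limitations.

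**Figure D5:**
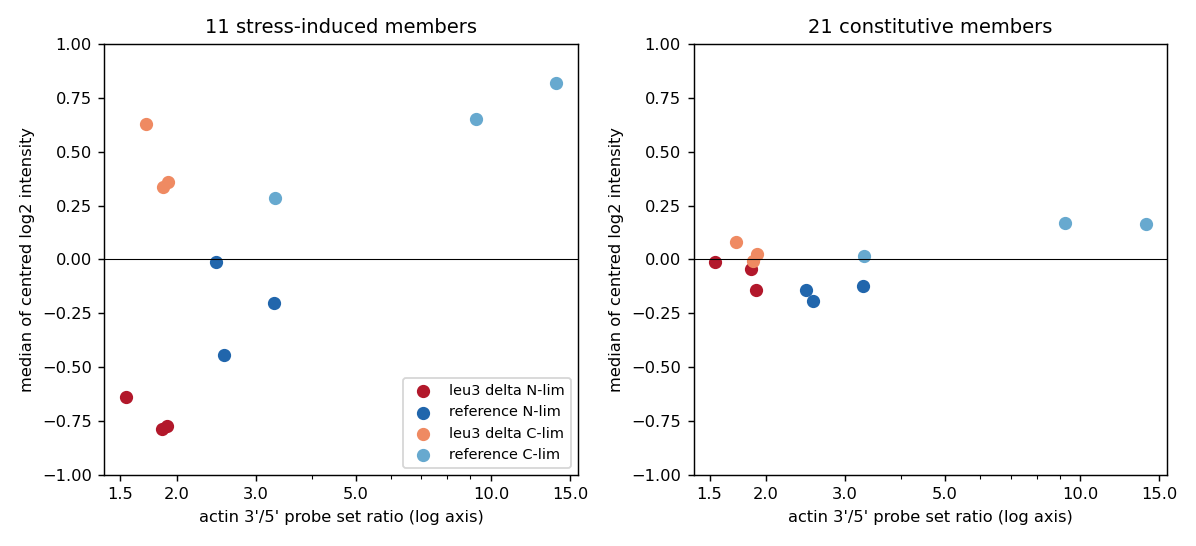
Median over the class of each gene's log2 intensity minus its 12-array mean, against the actin 3′/5′ ratio of the array on a log axis, 1 point per array. The leu3 delta N-lim and leu3 delta C-lim arrays have actin ratios between 1.54 and 1.91 and lie apart on the left plot, and reference C-lim arrays 2 and 3 stand alone at ratios of 9.27 and 13.98.

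Within leu3 delta the actin ratio overlapped between the limitations, and the stress-induced medians of the limitations did not overlap. The SPT15 3′/5′ ratio of these arrays did not overlap either, at 3.582, 3.31 and 4.089 under N-lim against 2.931, 2.905 and 2.559 under C-lim. Its part in that limitation effect was not tested. In the reference strain the ratio and the class medians both rose on C-lim arrays 2 and 3. The part of the actin ratio in the strain differences under carbon limitation was not tested beyond the term and the removal given above.

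Paralogs and shared probe sets limit several of these values. The probe set shared by SSB1 and SSB2 read 1443, 1372 and 1406 in leu3 delta N-lim, against 1257, 1247 and 1304 in reference N-lim, and 1517, 1276 and 1544 in leu3 delta C-lim, against 1721, 1362 and 1212 in reference C-lim. It was slightly higher in leu3 delta under N-lim without overlap, and overlapped under C-lim. The brighter probe set shared by SSA1 and SSA2 read 4121, 4950 and 4371 in leu3 delta N-lim, against 6450, 5845 and 6099 in reference N-lim, the same order as SSA1. The other one read 788, 734 and 824 in leu3 delta N-lim, against 1090.0, 713 and 866 in reference N-lim, and overlapped. The probe set shared by HSP82 and HSC82 read 1477, 1491 and 1351 in leu3 delta N-lim, against 1392, 1088 and 1292 in reference N-lim. The probe sets used for SSA1 and HSP82 have names that the manufacturer gives to sets with relaxed or incomplete probe selection, so signal from the near-identical partner cannot be separated out. CPR1 had 3 probe sets of its own, and the brightest was used. The unused ones went opposite ways under nitrogen limitation without overlap, 1 reading 1728, 1655 and 1812 in leu3 delta N-lim against 1516, 1487 and 1520 in reference N-lim and the other 2250, 2000 and 2127 in leu3 delta N-lim against 2506, 2595 and 2494 in reference N-lim, so CPR1 has no settled strain difference there.

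Genes around the chaperones were read from the same fit. Of 7 regulator genes RIM15 (-0.93 ± 0.16, adjusted p = 0.000608) and YAK1 (-0.95 ± 0.24, adjusted p = 0.0108), kinases that act on the stress factors, fell in leu3 delta under nitrogen limitation, beside 16.1% of all genes lower. RIM15 read 72.9, 84.4 and 81.5 in leu3 delta N-lim, against 173, 130.5 and 153 in reference N-lim. HSF1 (-0.28), MSN2 (-0.21), MSN4 (-0.29), IRE1 (-0.12) and HAC1 (0.43) did not pass. Under carbon limitation MSN2 (0.67) and MSN4 (0.73) rose in leu3 delta and the other 5 did not pass. Of all genes 17.4% rose there, and the counts of this short list were not tested against those shares. RIM15 and YAK1 passed also without reference N-lim arrays 2 and 3 (-1.13 and -1.19), whereas MSN2 and MSN4 did not pass without reference C-lim arrays 2 and 3 (0.41 and 0.67). MSN4 was higher under N-lim than under C-lim in both strains, by 1.46 ± 0.18 in leu3 delta and 2.48 ± 0.18 in the reference (adjusted p = 1.59e-05 and 3.66e-08), opposite in sign to HSP26 and DDR2.

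Folding machines outside the members made no calls between the strains under nitrogen limitation, where 22.2% of all genes passed. None of 8 chaperonin subunit genes of the CCT complex, 6 prefoldin genes, 9 genes of folding in the endoplasmic reticulum, 8 further Hsp90 partner genes and 16 further J protein and exchange factor genes passed in limma. Their medians lay between -0.17 and 0.01. Under carbon limitation CCT6 (1.17) and CCT8 (0.44) rose of 8, YKE2 (0.49) rose of 6 prefoldin genes, and among the endoplasmic reticulum genes EUG1 (-0.59), MPD1 (-0.49) and PDI1 (-0.46) fell and CPR5 (0.45, named after its value was seen) rose of 9. Of 8 Hsp90 partner genes 2 rose and 2 fell, led by PIH1 (0.56), PPT1 (-0.56) and SGT1 (-0.54), and of 16 J protein and exchange factor genes 3 rose and 2 fell, led by HLJ1 (0.94), JJJ3 (0.65) and SIL1 (-0.60). Among all genes 17.4% rose and 10.7% fell in that comparison, and the counts of these short lists were not tested against those shares. Without reference C-lim arrays 2 and 3, CCT6 (0.71) and PIH1 (0.92) still passed. CCT8 (0.24), YKE2 (0.58), EUG1 (-0.35), MPD1 (-0.20), PDI1 (-0.34), CPR5 (0.37), PPT1 (-0.11), SGT1 (-0.43), HLJ1 (0.60), JJJ3 (0.36) and SIL1 (-0.38) did not.

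Of 14 tested genes of other stress proteins, MSC1 (-1.39 ± 0.19) and PHM7 (-1.03 ± 0.27) fell in leu3 delta under nitrogen limitation and none rose (adjusted p = 0.000145 and 0.0126), beside 16.1% of all genes lower, a share near that of the list. Both passed without reference N-lim arrays 2 and 3 (-1.65 and -1.78). Under carbon limitation 4 fell, among them PHM7 (-1.02), UBI4, a ubiquitin gene (-0.78), and CTT1, the cytosolic catalase gene, and CUR1 (0.55, named after its value was seen) rose. Of all genes 10.7% fell and 17.4% rose in that comparison. CTT1 lay below the floor on all leu3 delta C-lim arrays, so its level was at least 1.81-fold lower there. Without reference C-lim arrays 2 and 3 UBI4 passed (-0.77), and PHM7 (-0.75), CTT1 and CUR1 (0.55) did not. Between limitations this list split, beside 18.1% of all genes higher and 17.8% lower in leu3 delta and 32.6% higher and 14.9% lower in the reference. In leu3 delta 6 rose under N-lim, such as HSP31 (1.65), a chaperone-like glyoxalase gene, and 6 fell, led by the hydrophilins SIP18 (at least 15.8-fold lower, all N-lim arrays being under the floor of 12) and GRE1 (-3.91) and by MSC1 (-1.87). In the reference 3 rose and 5 fell, with HSP31 at 1.78, GRE1 at -4.58 and SIP18 at -4.17, and some reference N-lim arrays of GRE1 and SIP18 lay below the floor, which makes the printed change smaller.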

How the data were processed

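Each of 12 samples was hybridised to 1 Affymetrix yeast array, and the deposited values were 1 intensity per probe set, scaled by the authors: the trimmed mean of each array (2% cut at each end) came to 150.1, as found from the values. The software that made the intensities is not given in the sources used here. Groups came from the labels. Of 9335 probe sets 6504 named 1 gene, 328 several and 2503 none in the platform annotation, and the brightest single-gene probe set stood for each of 5656 genes. From the deposited intensities, values under 12 were set to 12 and log2 was taken. The 5321 genes over 12 on at least 3 arrays were fitted with limma 3.58.1 in R 4.3.3, with 4 group means (8 residual degrees of freedom), two-sided tests and Benjamini-Hochberg adjustment over all tested genes in each comparison. The fit was tested on simulated data. The number of arrays limits the precision. All members were named, with the regulators and up to 3 genes of each further list with the largest passing change in a comparison. Members and lists were chosen with earlier results of these data known. Same-numbered arrays did not deviate together (18 correlations between -0.31 and 0.16), so the numbers were not used as pairs. Alternatives changed the floor, the logarithm's offset, the filter, the probe set rule, the normalization, the arrays and the terms of the fit, and moved heat-raised genes between classes. For members with a single probe set and readings above the higher floor, the floor, filter and probe set alternatives could not change the size of a change. Promoter sequences were not used here.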

Additional observations from a re-analysis of the deposited data

Results flagged for a closer look

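For 4 of 32 members (12.5%) the strain effect differed between the limitations in limma's interaction test, beside 18.3% of all genes. Values are given as nitrogen minus carbon limitation. HSP26 stood at -1.42 and passed in all 22 alternatives (-1.52 to -1.11). DDR2 stood at -0.81, and its call ended without leu3 delta N-lim array 1 (-0.78) or 3 (-0.77), reference N-lim array 3 (-0.74), leu3 delta C-lim array 1 (-0.79), 2 (-0.86) or 3 (-0.79), without reference N-lim arrays 2 and 3 together (-0.71) and with centred arrays (-0.51). HSP104 stood at -0.76, and its call ended without leu3 delta N-lim array 1 (-0.73) or 2 (-0.72), reference N-lim array 1 (-0.57) or any leu3 delta C-lim array (-0.77, -0.77 and -0.74), and with centred arrays (-0.45), the actin term (-0.76) or reference C-lim arrays 2 and 3 left out (-0.79). SBA1 stood at -0.63, and its call ended in 11 alternatives, among them centred arrays (-0.32), the actin term (-0.51), reference C-lim arrays 2 and 3 left out (-0.54), reference N-lim arrays 2 and 3 left out (-0.67), and 7 single arrays left out (-0.64 to -0.57). These 7 were leu3 delta N-lim arrays 1 and 3, reference N-lim arrays 1 and 2, leu3 delta C-lim arrays 1 and 3 and reference C-lim array 2.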

How the results depend on the processing

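The number of members called moved with the arrays and the fit. Without reference C-lim arrays 2 and 3 it was 10 for the strain effect under nitrogen limitation (6 in the report), 0 under carbon limitation (9) and 8 for the limitation effect in the reference (18), and with the actin ratio as a term it was 0 under carbon limitation and 4 for the limitation effect in the reference. Without reference N-lim arrays 2 and 3 it was 11 for the limitation effect in the reference and 2 for the interaction (4). Fitting only the groups compared gave 10 under nitrogen and 5 under carbon limitation, quantile normalization 5 under carbon limitation, and centring 8 for the interaction. Leaving out 1 array at a time gave 5 to 7 (strain, nitrogen), 5 to 14 (strain, carbon), 1 to 10 (interaction), 8 to 12 (limitation, leu3 delta; 13 in the report) and 14 to 21 (limitation, reference). The carbon count was 5 without leu3 delta C-lim array 1 or reference C-lim array 2 and 14 without reference C-lim array 1. The interaction count was 1 or 2 without leu3 delta N-lim array 1 or 3, reference N-lim array 1 or any leu3 delta C-lim array, and 10 without reference C-lim array 1. The leu3 delta limitation count was 8 without N-lim array 3 or C-lim array 1.

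The median of stress-induced minus that of constitutive members was -0.73 for the strain effect under nitrogen limitation, and -1.05 without reference N-lim arrays 2 and 3. For the interaction it was -0.68, and -0.90 with the actin term. For the limitation effect it was -0.94 in leu3 delta, and -0.78 on log2(intensity + 16), and -0.73 in the reference, with -0.997 after quantile normalization, -0.08 with the actin term, -0.18 without reference C-lim arrays 2 and 3 and -0.43 without reference N-lim arrays 2 and 3. Counting the 9 heat-raised genes as stress-induced gave -0.14 (strain, nitrogen), -0.46 (limitation, leu3 delta) and a turned sign, 0.12, for the interaction. Leaving out 1 array gave -0.91 to -0.58 (strain, nitrogen), -0.07 to 0.11 (strain, carbon; 0.07 in the report's fit), -0.82 to -0.52 (interaction), -1.14 to -0.79 (limitation, leu3 delta) and -0.89 to -0.47 (limitation, reference). YDJ1 under carbon limitation turned to -0.45 with the actin term. The cause of these shifts was not tested. With the array number as a replicate block the counts were 5 (strain, nitrogen), 8 (strain, carbon), 4 (interaction), 13 and 18 (limitation, leu3 delta and reference), the lost calls being HSP78 (0.54) and SIS1 (-0.47).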
